A study of Mus musculus with 13 samples.

Results

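MMERGLN is a mouse endogenous retrovirus of the class written ERV1 in its name, the class of gammaretrovirus-like elements. It stood in the deposited tables as 2 consensus rows, MMERGLN_I_ERV1_Mus for the internal part and MMERGLN_LTR_ERV1_Mus for the long terminal repeat (LTR). These 2 rows, of 889 rows with signal, were chosen by name with earlier results of the same libraries known, so their levels and differences are given below as a description, without a test of their own. Each row has a sense and an antisense value, which makes 4 MMERGLN features. Coverage steps in the tables correspond to consensus lengths of 7556 bases for the internal row and 430 bases for the LTR row.

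The libraries were strand-specific RNA sequencing of rRNA-depleted total RNA from mouse tumour cell lines grown in culture. In B16 melanoma cells there were 4 genotypes with 2 libraries each: the Tdg Trp53 double knockout (DKO), Trp53 KO, Tdg KO and WT. In KP cells, labelled as lung adenocarcinoma (LUAD), there were 3 Tdg KO and 2 WT libraries. Values are mean read coverage per base of the consensus, as deposited and not scaled to library size. The labels do not say whether the replicates were separate cultures or clones, so every spread below is a spread between libraries. The tables hold repeats and piRNA loci only, so the knockouts and the identity of the cell lines were taken from the labels.

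An endogenous retrovirus is a retroviral genome that was inserted into the germ line and is inherited. Its internal part carries the gag, pol and env coding regions, and the flanking LTRs hold the promoter and the polyadenylation signal, so that a full-length transcript starts and ends within LTR sequence. The GLN family takes its name from the glutamine tRNA that primes its reverse transcription, and copies able to form retroviral particles have been described in the mouse genome. LTRs also occur alone after recombination between the flanking repeats, and a transcript over such a solo LTR adds to the LTR row without adding to the internal row. TDG is a thymine DNA glycosylase that removes thymine from G/T mismatches and takes part in active DNA demethylation, and Trp53 encodes the tumour suppressor p53. In bulk RNA, fewer cells with a transcript and less transcript per cell cannot be told apart.

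Depth was not given, and the libraries differed in the coverage shared among all rows. The 7SL row took 85.3% to 95.4% of all coverage, over both strands and all rows, in the B16 libraries and 93.3% to 99.1% in the KP libraries. It was highest in DKO replicate 1 and in KP Tdg KO replicate 1, which stood apart from the other libraries of their groups. Coverage over the repeat rows other than 7SL summed to between 17766 and 38281 in B16 and between 4842 and 11589 in KP. The median ratio of a library to the mean library of its table, over the features whose mean coverage reached 1, was 1.76 and 1.37 in the DKO libraries, 0.614 and 0.522 in the Trp53 KO libraries, 0.863 and 0.646 in the Tdg KO libraries and 0.688 and 0.935 in the B16 WT libraries. As deposited, 90.3% of all features were higher in DKO than in Trp53 KO, so the median difference of all features is given beside the MMERGLN differences of each comparison.

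In B16 cells, MMERGLN was among the best-covered repeats. Internal sense coverage was 750.8 and 1067 in the DKO libraries, 231.8 and 183.5 in the Trp53 KO libraries, 557.4 and 507.3 in the Tdg KO libraries and 269.8 and 476.4 in the WT libraries. The 4 groups did not overlap in this order of their values, with DKO highest, then Tdg KO, then WT, and Trp53 KO lowest. The lowest WT library lay close above the higher Trp53 KO library, and the highest WT library lay close below the lower Tdg KO library. Group means were 908.7 ± 223.3 in DKO, 207.6 ± 34.2 in Trp53 KO, 532.3 ± 35.5 in Tdg KO and 373.1 ± 146.1 in WT (SD, n = 2 each). The internal row ranked between 5 and 9 by sense coverage among the repeat rows with sense signal of each B16 library.

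LTR sense coverage in B16 was lower than internal sense coverage per base in every library, and it differed more between the groups. It was 414.0 and 311.3 in DKO, 47.8 and 31.2 in Trp53 KO, 205.9 and 158.5 in Tdg KO and 72.0 and 162.7 in WT. DKO was again the highest group and Trp53 KO the lowest, each apart from the others, while the Tdg KO and WT ranges overlapped. Group means were 362.6 ± 72.6 in DKO, 39.5 ± 11.8 in Trp53 KO, 182.2 ± 33.5 in Tdg KO and 117.4 ± 64.1 in WT (SD, n = 2 each). A floor of 3 fragments per library, with 298 bases per fragment taken from the most frequent lowest value, equals a coverage of 0.118 on the internal row and 2.08 on the LTR row. The B16 sense values of both rows lay well above it.

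Antisense coverage was low beside sense coverage. For the internal row it was 11.8 and 16.8 in DKO, 4.76 and 4.32 in Trp53 KO, 6.98 and 5.65 in Tdg KO and 6.52 and 8.02 in WT. For the LTR row it was 23.7 and 26.0 in DKO, 9.81 and 1.21 in Trp53 KO, 11.1 and 9.80 in Tdg KO and 6.33 and 14.9 in WT. On both rows DKO lay above every other B16 group, and the Tdg KO and WT ranges overlapped. The LTR value of Trp53 KO replicate 2 was under the floor of 3 fragments.

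**Figure D1:**
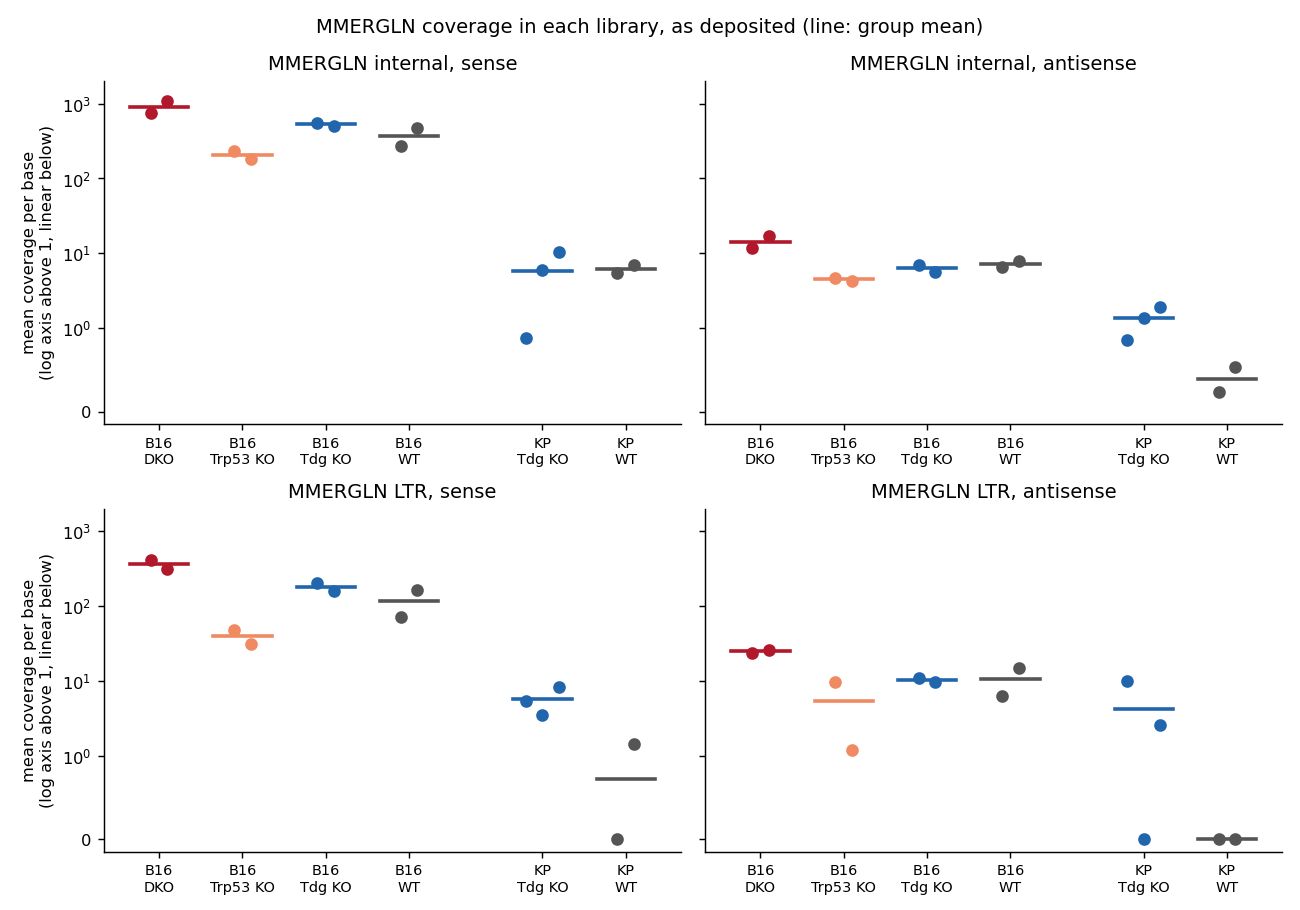
Coverage per base of the internal row (top) and the LTR row (bottom), sense (left) and antisense (right), in each of the 13 libraries by cell line and genotype, on an axis that is logarithmic above 1 and linear below. Points are libraries and lines are group means. In B16 the internal sense points lie between 183.5 and 1067 with DKO highest, and in KP between 0.879 and 10.5.

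Between DKO and Trp53 KO, the comparison of Tdg loss in cells without Trp53, MMERGLN coverage as deposited was higher in DKO on both rows and both strands, and only the difference of internal antisense turned with the scaling, to -0.44 on the log2 scale after median centring. The ratio of group means was 4.38 for internal sense, 9.18 for LTR sense, 3.15 for internal antisense and 4.51 for LTR antisense. On the log2(coverage + 0.1) scale the difference was 2.12 ± 0.36 for internal sense and 3.21 ± 0.45 for LTR sense (limma, SE). For antisense it was 1.61 ± 0.34 on the internal row and 2.79 ± 0.93 on the LTR row. The median over all 1246 features was 1.67, so internal antisense lay slightly under that median and the other 3 features above it.

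In the limma fit across all features, with Benjamini-Hochberg adjustment and a threshold of 0.05, 3 of the 4 MMERGLN features passed as higher and LTR antisense did not, where 29.5% of all features passed as higher. Values did not overlap between DKO and Trp53 KO, with DKO higher, for 4 of 4 MMERGLN features and for 68.9% of all features. Since the rows were chosen with these differences known, nothing is read from these counts. The count of MMERGLN features that passed was 0 without Trp53 KO replicate 1, 0 without Trp53 KO replicate 2 and 2 without DKO replicate 1, and over all features, in either direction, 387 passed in the full fit and 2, 15 and 140 in these 3 fits. Without DKO replicate 1, the library with the high 7SL share, the ratio of means was 5.14 for internal sense and 7.88 for LTR sense. The log2 difference of LTR antisense was 1.33 without Trp53 KO replicate 2 and 4.25 without Trp53 KO replicate 1, and its ratio of means was then 2.53 and 20.6.

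The scale of the libraries changed these differences. After each library was divided by its median ratio, internal sense was 426 and 777 in DKO against 378 and 351 in Trp53 KO. LTR sense was then 235 and 227 in DKO against 77.9 and 59.7 in Trp53 KO. The scaled log2 differences were 0.66 for internal sense, 1.76 for LTR sense, 0.17 for internal antisense and 1.37 for LTR antisense, with 0.60 as the median of all features. After this scaling LTR sense alone passed of the 4 features, where 6.18% of all features passed as higher. Libraries were also scaled by their repeat coverage other than 7SL, an alternative chosen after seeing the data. The sense differences were then 1.65 and 2.75, with a median of 1.36 over all features. Both sense features passed on that scale, where 20.9% of all features passed as higher. After median centring and after quantile normalization, LTR sense was higher in DKO by 1.16 and 2.21 on the log2 scale, with medians of -0.38 and -0.10 over all features. No MMERGLN feature passed on these scales (0 of 4 in each, 1 of 4 as higher at an unadjusted p under 0.05, beside 110 and 123 of 1246 features). Internal sense was close to the median of all features after median-ratio scaling.

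The share of MMERGLN in the sense coverage of all ERV1 rows does not depend on library depth. It does depend on the other ERV1 rows. Of these RLTR4I_MM had the highest mean sense coverage in B16, at 3211 against 505.4 for MMERGLN internal. RLTR4I_MM differed by 0.07 on the log2 scale between DKO and Trp53 KO, beside a median of 1.67 over all features. The share thus sets MMERGLN in large part beside that row. The internal row took 11.9% and 22.0% of ERV1 sense coverage in DKO, 4.41% and 6.24% in Trp53 KO, 13.1% and 15.6% in Tdg KO and 7.53% and 12.6% in WT. The LTR row took 6.56% and 6.42% in DKO, 0.910% and 1.06% in Trp53 KO, 4.85% and 4.88% in Tdg KO and 2.01% and 4.29% in WT. On the LTR row the 4 groups were fully apart by this share, with DKO highest and Trp53 KO lowest. On the internal row Trp53 KO was lowest and apart from the rest, while DKO overlapped Tdg KO and WT. How many of the other ERV1 rows lay apart by this share was not counted, so nothing is read from these separations.

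**Figure D2:**
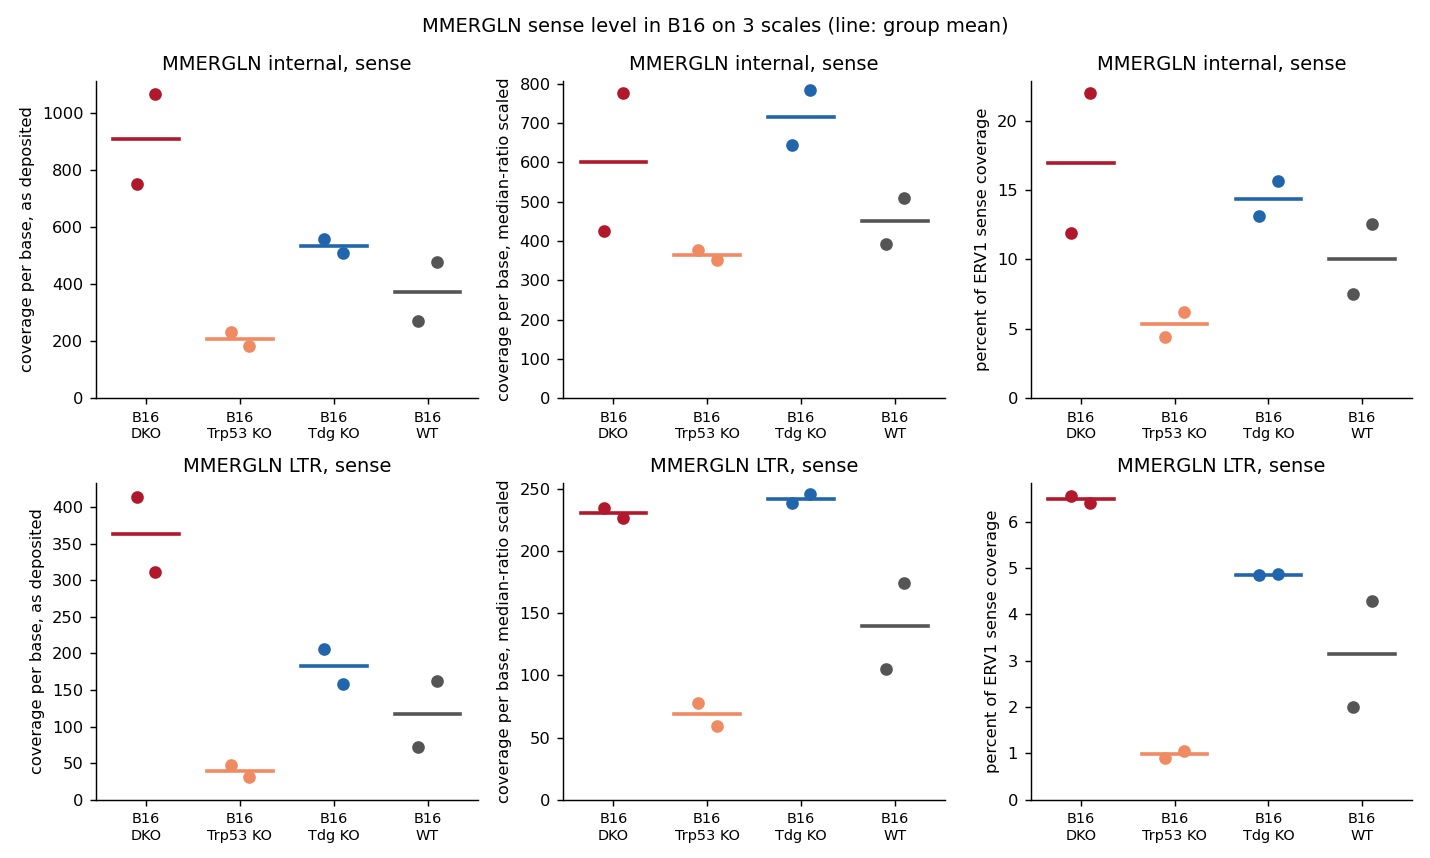
Sense level of the internal row (top) and the LTR row (bottom) in the 8 B16 libraries on 3 scales: coverage per base as deposited, coverage divided by the median ratio of the library, and percent of the sense coverage of all ERV1 rows. Points are libraries and lines are group means. LTR sense in Trp53 KO is lowest on all 3 scales, at 47.8 and 31.2 as deposited and at 0.910% and 1.06% of ERV1 coverage.

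DKO was also compared with Tdg KO, which asks what Trp53 loss adds in cells without Tdg, and with WT. The comparisons share the DKO libraries, and the comparison with WT also shares its WT libraries with those that follow. Against Tdg KO, the ratio of means was 1.71 for internal sense, 1.99 for LTR sense, 2.26 for internal antisense and 2.38 for LTR antisense. The log2 differences of internal and LTR sense were 0.75 ± 0.36 and 0.99 ± 0.45, under the median of 1.14 over all features. No MMERGLN feature passed (0 of 4 by limma), where 3.05% of all features passed as higher. At an unadjusted p under 0.05, 1 of the 4 was higher in DKO, as were 33.0% of all features. The 4 features did not overlap between DKO and Tdg KO, with DKO higher, as did 62.1% of all features. After median-ratio scaling the sense differences were -0.31 and -0.07, with a median of 0.22 over all features, so the direction of both sense features turned with the scale. Median centring also turned the antisense differences, to -0.35 on the internal row and -0.25 on the LTR row.

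Against WT, the ratio of the DKO mean was 2.44 for internal sense, 3.09 for LTR sense, 1.97 for internal antisense and 2.34 for LTR antisense. The log2 differences were 1.32 ± 0.36 for internal sense and 1.73 ± 0.45 for LTR sense, above the median of 1.09 over all features. Of the 4 features 0 passed by limma, where 4.09% of all features passed as higher. At an unadjusted p under 0.05, 3 of the 4 were higher in DKO, as were 28.5% of all features. All 4 were higher in DKO without overlap, as were 54.7% of all features. Without WT replicate 2 the ratio of means was 5.04 for LTR sense and 3.92 for LTR antisense. After median-ratio scaling the differences were 0.36 for internal sense, 0.77 for LTR sense and 0.00 for internal antisense, with a median of 0.29. After median centring internal sense was -0.05, internal antisense -0.42 and LTR antisense -0.03, so that only LTR sense kept its direction under all scalings.

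For the single knockouts of B16, the differences from the shared WT libraries went in opposite directions for MMERGLN sense coverage, on both rows and under all 5 scalings of the libraries. In Tdg KO against WT, the ratio of means was 1.43 for internal sense, 1.55 for LTR sense, 0.868 for internal antisense and 0.981 for LTR antisense. The log2 differences were 0.57 ± 0.36 for internal sense and 0.74 ± 0.45 for LTR sense, with a median of -0.05 over all features. Of the 4 features 0 passed by limma, where 0% of all features passed in either direction. At an unadjusted p under 0.05, 0 of the 4 differed, and of all 1246 features 15 were higher and 27 lower in Tdg KO. Internal sense was the 1 of the 4 features that was higher in Tdg KO without overlap, as were 6.50% of all features. After median-ratio scaling internal sense was 646 and 786 in Tdg KO against 392 and 510 in WT, and LTR sense was 238 and 246 in Tdg KO against 105 and 174 in WT. On that scale neither sense feature overlapped between the groups. The share of all features without overlap was not taken there, so nothing is read from this. Without WT replicate 1, the log2 difference of internal sense as deposited was 0.16, and without WT replicate 2 it was 0.98. That of LTR sense was 0.15 without WT replicate 1 and 1.33 without WT replicate 2. Without WT replicate 2 the ratio of means was 2.53 for LTR sense and 1.65 for LTR antisense.

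In Trp53 KO against WT, the ratio of means was 0.557 for internal sense, 0.337 for LTR sense, 0.624 for internal antisense and 0.518 for LTR antisense. The log2 differences were -0.80 ± 0.36 for internal sense and -1.49 ± 0.45 for LTR sense, with a median of -0.41 over all features. Of the 4 features 0 passed by limma, where 0% of all features passed in either direction. At an unadjusted p under 0.05, 1 of the 4 was lower in Trp53 KO, as were 5.22% of all features. In 3 of the 4 features Trp53 KO was lower without overlap, as were 35.2% of all features. After median-ratio scaling the differences were -0.30 for internal sense and -0.98 for LTR sense. The LTR antisense ranges overlapped, with 9.81 and 1.21 in Trp53 KO against 6.33 and 14.9 in WT. Without WT replicate 2 the ratio of means was 0.548 for LTR sense and 0.869 for LTR antisense. The LTR antisense ratio was 0.114 without Trp53 KO replicate 1 and 0.923 without Trp53 KO replicate 2.

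The Tdg by Trp53 interaction sets the effect of Tdg loss in cells without Trp53 beside that in cells with it. For MMERGLN it was 1.55 ± 0.51 for internal sense, 2.48 ± 0.64 for LTR sense, 1.81 ± 0.48 for internal antisense and 2.70 ± 1.31 for LTR antisense on the log2 scale (limma, SE). The median over all features was 1.66. Of the 4 features 0 passed, where 0% of all features passed in either direction. The interaction was above 0 at an unadjusted p under 0.05 for 3 of the 4 and for 34.3% of all features. With 1 library left out, the interaction ranged from 1.14 to 1.96 for internal sense and from 1.89 to 3.06 for LTR sense. For antisense it ranged from 1.56 to 2.07 on the internal row and from 1.235 to 4.155 on the LTR row. After median-ratio scaling the interaction was -0.01 for internal sense and 0.92 for LTR sense, with a median of 0.44 over all features.

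**Figure D3:**
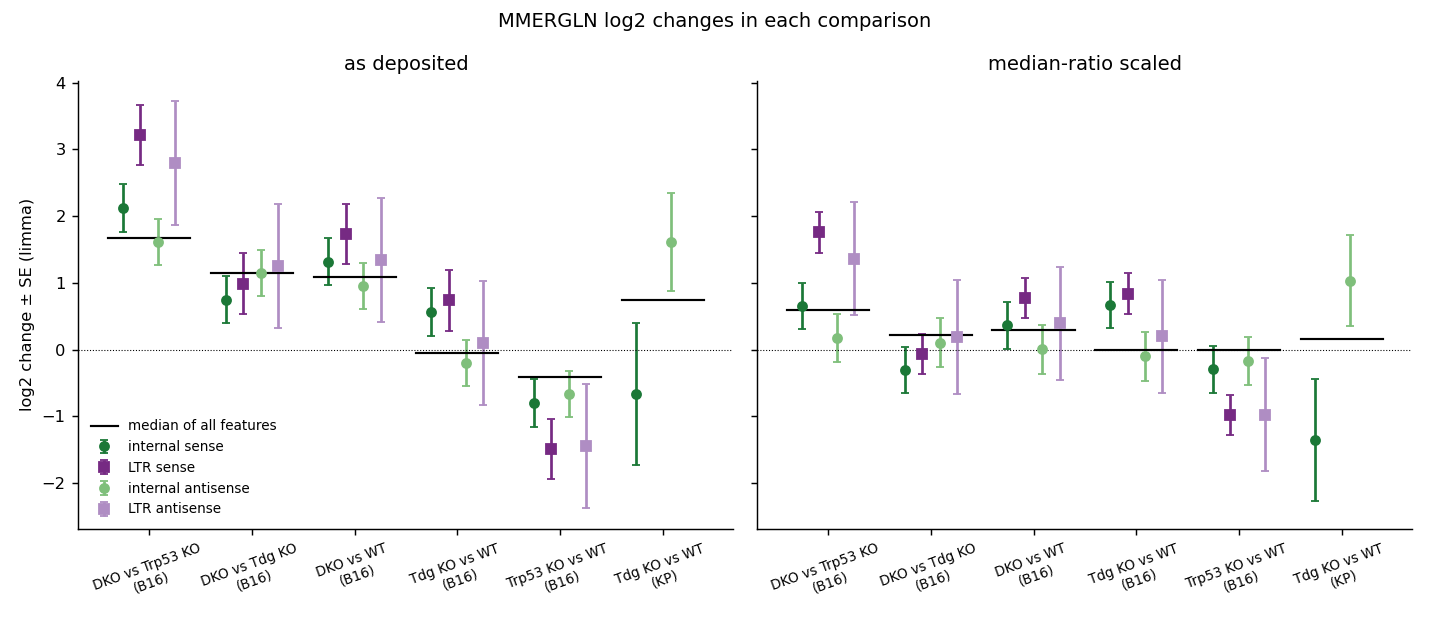
Log2 difference with its SE from limma for each MMERGLN feature in 5 B16 comparisons and 1 KP comparison, as deposited (left) and after median-ratio scaling (right), with the median of all features as a black line. LTR features are left out for KP, where WT lay under the floor of 3 fragments. LTR sense in DKO against Trp53 KO was 3.21 as deposited, above the median of 1.67, and 1.76 after scaling, above the median of 0.60.

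In KP cells MMERGLN was a minor repeat. Internal sense coverage was 0.879, 5.93 and 10.5 in the Tdg KO libraries and 5.48 and 6.95 in the WT libraries, with means of 5.77 ± 4.81 (SD, n = 3) and 6.21 ± 1.04 (SD, n = 2). The Tdg KO range enclosed the WT range. The internal row ranked between 59 and 178 by sense coverage among repeat rows, and the 2 strands together made 0.016% to 0.146% of the repeat coverage other than 7SL, against 0.865% to 3.94% in B16. Depth is unknown in both lines, so no ratio of coverage between them is given. KP Tdg KO replicate 1, whose 7SL share was 99.1%, had the lowest internal sense value.

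The log2 difference of internal sense between KP Tdg KO and WT was -0.66 ± 1.06 with all libraries and 0.35 without KP Tdg KO replicate 1, and the median over all features was 0.75 with all libraries. Its ratio of means was 0.929 with all libraries, 1.32 without KP Tdg KO replicate 1 and 0.548 without KP Tdg KO replicate 3. After median-ratio scaling internal sense was 0.983, 5.58 and 7.84 in Tdg KO against 9.18 and 9.31 in WT. Each Tdg KO library lay under both WT libraries on that scale, where the median difference of all features was 0.15. How many of all features lay apart on that scale was not counted, so nothing is read from this. As a share of the sense coverage of all ERV1 rows, which needs no scaling, internal sense was 0.0730%, 0.442% and 0.323% in Tdg KO against 0.401% and 0.750% in WT, and the groups overlapped. Internal antisense coverage was 0.861, 1.36 and 1.94 in Tdg KO against 0.238 and 0.541 in WT, higher in Tdg KO without overlap. The ratio of means of internal antisense was 3.57 with all libraries, 4.24 without KP Tdg KO replicate 1, 2.57 without KP WT replicate 1 and 5.83 without KP WT replicate 2. Its log2 difference was 1.61 ± 0.73 as deposited and 1.04 ± 0.68 after median-ratio scaling (limma, SE).

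LTR coverage in KP was close to the limit of detection. LTR sense was 5.43, 3.53 and 8.24 in Tdg KO against 0 and 1.45 in WT, and LTR antisense was 10.1, 0 and 2.56 in Tdg KO against 0 and 0 in WT. The WT values lay under the floor of 2.08, which is the coverage that 3 fragments give on so short a row. The Tdg KO sense values lay above the WT values without overlap, and the highest antisense value was in KP Tdg KO replicate 1. Of the 4 features 0 passed by limma, where 0% of the 984 features passed in either direction. With no adjustment, 1 of the 4 had a p under 0.05 and was higher in Tdg KO, as were 4.47% of all features. LTR sense and internal antisense, 2 of the 4 features, were higher in Tdg KO without overlap, as were 19.2% of all features.

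The ratio of internal to LTR sense coverage is taken within a library, so depth cancels out of it. It was 1.81 and 3.43 in DKO, 4.85 and 5.89 in Trp53 KO, 2.71 and 3.20 in Tdg KO and 3.75 and 2.93 in WT. The Trp53 KO libraries had the highest ratios, apart from the other 3 groups, and the Tdg KO and WT values lay within or near the DKO range. The RLTR4 pair, given below, also had its highest ratios in Trp53 KO. How many of all pairs lay apart in this way was not counted. On the log2 scale the DKO mean was lower than the Trp53 KO mean by a difference of -1.10, with a pooled SD of 0.48, and the Trp53 KO mean was above the WT mean by 0.69, with a pooled SD of 0.23. Two-sided exact permutation of 2 against 2 libraries cannot give a p under 0.333, so no test was made. In KP the ratio was 0.162, 1.68 and 1.27 in Tdg KO against 4.79 in WT replicate 2, and WT replicate 1 had no LTR sense coverage. Those KP ratios rest on LTR values near the floor.

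The same ratio was taken for the other repeats whose internal and LTR rows share a name stem, 23 pairs in all with MMERGLN. MMERGLN had the third highest internal sense coverage of these pairs in B16, and its median ratio over the 8 libraries was 3.31. RLTR4I_MM with its LTR row RLTR4_MM, a murine leukaemia virus relative, had a median ratio of 16.6, and IAPLTR1a_I_MM, of the intracisternal A particles, one of 15.6. The RLTR4 ratio was 16.9 and 15.1 in DKO against 39.1 and 30.7 in Trp53 KO. The IAPLTR1a ratio was 7.53 and 9.39 in DKO against 29.9 and 29.6 in Trp53 KO. A lower ratio of internal to LTR coverage in DKO than in Trp53 KO was thus seen for these 3 best-covered pairs. The rows behind it differed: IAPLTR1a internal coverage was lower in DKO, at 1983 and 1353 against 4902 and 3114, and MMERGLN internal coverage was higher. The IAPLTR3_I ratio overlapped, at 13.9 and 5.24 in DKO against 9.06 and 24.1 in Trp53 KO. IAP5-Mm_I, IAPLTR3_I and IAPLTR4_I had LTR coverage in 3, 7 and 1 of the 8 B16 libraries, with median ratios of 24.9, 13.9 and 13.5. In KP the RLTR4 ratio was between 0.812 and 1.43, and RLTR6I_MM, IAPEY4_I and IAPLTR1a_I_MM had medians of 0.392, 3.84 and 4.28, while RNLTR12-int had no LTR sense coverage. The KP median of MMERGLN was 1.48 over 4 libraries.

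MMERGLN RNA in B16 was mainly of the sense strand. The ratio of sense to antisense coverage of the internal row was 63.9 and 63.4 in DKO, 48.7 and 42.5 in Trp53 KO, 79.9 and 89.8 in Tdg KO and 41.4 and 59.4 in WT. Tdg KO had the highest ratios, DKO the next, and the Trp53 KO values lay inside the WT range. The lower DKO value lay close above the higher WT value, at 63.4 against 59.4. On the LTR row the ratio was 17.5 and 12.0 in DKO, 4.88 and 25.8 in Trp53 KO, 18.6 and 16.2 in Tdg KO and 11.4 and 10.9 in WT. Across the repeat rows of each library, the median share of coverage on the sense strand was 29.3% to 40.0% in B16. In KP the internal row had a ratio of sense to antisense coverage of 1.02, 4.34 and 5.41 in Tdg KO against 23.0 and 12.8 in WT. The Tdg KO libraries were all lower, both with and without KP Tdg KO replicate 1. The KP WT ratios rest on low internal antisense coverage, 0.238 and 0.541, where the floor of 3 fragments is 0.118. How many other repeat rows lay apart by their strand ratio was not counted in either line, so nothing is read from these separations. The median sense share over the repeat rows of the KP libraries was 34.9%, 39.2% and 50.0% in Tdg KO against 52.1% and 47.2% in WT, and its part in the MMERGLN strand ratio was not tested.

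**Figure D4:**
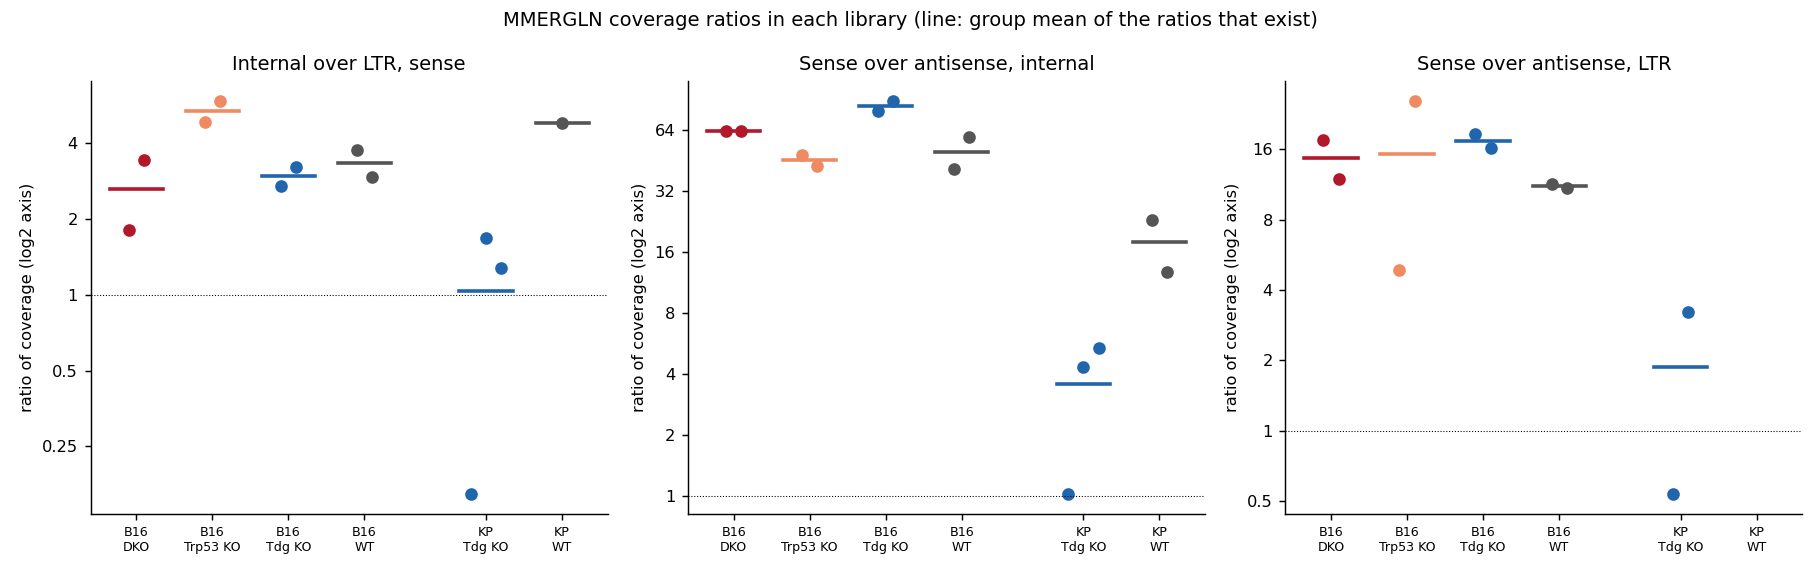
Ratios of coverage within each library on log2 axes: internal over LTR on the sense strand (left), sense over antisense on the internal row (middle) and sense over antisense on the LTR row (right). Points are libraries, lines are means over the libraries that have a ratio, and the dotted line marks 1. The internal over LTR ratio is highest in B16 in Trp53 KO, at 4.85 and 5.89, and the internal strand ratio in KP is 1.02 to 5.41 in Tdg KO against 23.0 and 12.8 in WT.

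Other elements of the ERV1 class, to which MMERGLN belongs, were read from the class in their names. Of 69 such rows with signal, 41 reached the mean coverage minimum of 0.1 in sense and 49 in antisense in B16. In DKO against Trp53 KO, 7 of 41 rose in sense and 14 of 49 in antisense, and 0 fell, with median log2 differences of 2.14 and 1.67 beside 1.67 over all features (limma, adjusted p under 0.05 over all features). These shares, 17.1% in sense and 28.6% in antisense, stand beside 26.2% of all sense and 33.2% of all antisense features that passed as higher. The summed count of 21 was 1 without Trp53 KO replicate 1, 0 without Trp53 KO replicate 2 and 6 without DKO replicate 1. Scaled by median ratio, 2 passed as higher and 1 as lower in sense, and 3 as higher in antisense. In DKO against Tdg KO and in DKO against WT, which share the DKO libraries, 1 of 41 passed in sense, RLTR41A2, and 1 of 49 in antisense, RNLTR10A. RLTR41A2 sense coverage was 0.939 and 2.03 in DKO and 0 in the other 6 B16 libraries, and RNLTR10A antisense coverage was 0.650 and 0.646 in DKO and 0 in the others. Both reached the mean coverage minimum only through their DKO values, so nothing is read from their passing. Over all features 14 of 646 in sense and 24 of 600 in antisense passed as higher against Tdg KO, and 20 and 31 against WT. The summed count of each comparison moved with 1 library left out, and so did the count over all features. Each such fit leaves 1 library in a group, so nothing is read from these counts.

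In Tdg KO against WT, Trp53 KO against WT and the interaction of B16, and in KP, 0 other ERV1 features passed by limma. At an unadjusted p under 0.05, 1 of 41 was higher in sense and 1 of 49 lower in antisense in Tdg KO against WT, beside 1.86% and 2.17% of all features of these strands. In Trp53 KO against WT 1 of 41 was higher and 3 of 41 lower in sense, beside 1.86% and 4.33% of all sense features. In antisense 9 of 49 were lower there, or 18.4%, beside 6.17% of all antisense features. The interaction was above 0 for 9 of 41 in sense (22.0%) and 13 of 49 in antisense (26.5%), beside 30.0% and 38.8% of all features, and below 0 for 1 in sense. In KP 1 of 30 in sense and 4 of 34 in antisense were higher in Tdg KO, beside 3.71% and 5.30% of all features. The ERV1 rows with the highest sense coverage in B16 were RLTR4I_MM, RLTR4_MM and RLTR1B_MM, beside the MMERGLN rows. RLTR4I_MM sense coverage was 4487 and 2950 in DKO against 4706 and 2541 in Trp53 KO, and it did not pass (log2 difference 0.07 ± 0.43). RLTR4_MM, its LTR row, had 265.7 and 195.2 in DKO against 120.5 and 82.8 in Trp53 KO and did not pass (log2 difference 1.19 ± 0.39). RLTR1B_MM, a further LTR row, rose to 120.5 and 89.1 in DKO, against 12.0 and 4.13 in Trp53 KO (log2 difference 3.86 ± 0.57, adjusted p = 0.0154 by limma). The largest rises by the fit were RLTR30_MM antisense, at 7.10 and 5.85 in DKO against 0 and 0 in Trp53 KO, and RMER2_Rn sense, at 2.74 and 4.83 in DKO against 0 and 0 in Trp53 KO. In KP the highest were RLTR4_MM, RLTR4I_MM and RLTR6_MM, none of which passed. RLTR6_MM sense coverage was 471.6, 152.9 and 409.5 in KP Tdg KO against 148.5 and 26.9 in KP WT.

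The features most like MMERGLN internal sense across the 8 B16 libraries were sought among 811 features with mean coverage of at least 1, by Pearson's r of log2(coverage + 0.1) after median-ratio scaling. They were RLTR1D2_MM sense (r = 0.825), RLTR13D3A sense (0.807), RLTR6B_Mm antisense (0.799), RLTR30_MM antisense (0.789) and RMER10B antisense (0.787). Of these RLTR1D2_MM, RLTR6B_Mm and RLTR30_MM are ERV1 rows. MMERGLN LTR sense, which was not among the ranked features, had r = 0.807, and the antisense features had r = 0.517 on the internal row and 0.571 on the LTR row. RLTR1D2_MM sense coverage was 5.09 and 6.31 in DKO, 1.49 and 0.930 in Trp53 KO, 2.44 and 2.46 in Tdg KO and 1.50 and 3.77 in WT. These libraries share their group differences and depth, and related consensus rows can hold the same reads, so the correlations are a description. In KP, over 5 libraries and 534 features, the nearest were 4 piRNA loci, among them pi-Klhl11.1 and pi-Ssh1.1, and the ERV2 row RLTR13C1, all in sense, with r between 0.984 and 0.995. MMERGLN LTR sense there had r = -0.47 with the internal row.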

How the data were processed

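Strand-specific RNA sequencing libraries of B16 (8) and KP (5) cells were analysed from 2 deposited tables of piPipes mean signal. Per the labels, TRIzol-extracted total RNA was depleted of rRNA before directional library preparation. HISAT2, DESeq2 and mm10 are listed, with no version or role, per the submitters' processing notes. How reads were aligned, how a read matching several rows was placed, and the library depths are not stated in these sources, and related consensus rows can share reads. Per the file headers, the authors gave each library a sense and an antisense column, and the deposited signal is mean coverage per base of each element. The deposited antisense values were negative, and their size was used.

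Of 2035 rows in a table, 895 had signal, or 889 without 6 duplicates. For 657 of 661 rows tested (99.4%), the values were whole multiples of 1 step, so coverage was not scaled to depth. A value counted as whole when it lay within 0.6 of a unit in its significant digit number 10, which times the row's length was a median of 3.49e-06 covered bases for a row's highest value. The step also gave the length of the MMERGLN rows. No interval for counting error is given, since the number of reads is unknown, and the floor of 3 fragments is an estimate that covers counting error only.

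Each strand of a row was a feature. Features with mean coverage of at least 0.1 (1246 in B16, 984 in KP, with all 4 MMERGLN features in both) entered limma 3.58.1 in R 4.3.3 (lmFit, eBayes with trend) as log2(coverage + 0.1), which understates differences of low features. All groups of a table shared a fit, with 4 residual degrees of freedom in B16 and 3 in KP. Contrasts were two-sided, and p-values were adjusted over all features by the method of Benjamini and Hochberg. They measure the spread between libraries, which may be technical. The fit was run on simulated data with as many rises as falls and no shift between libraries. That run does not bear on the choice of scaling. Samples were grouped by the genotype in the labels. Alternatives were median centring, quantile normalization, median-ratio scaling, other pseudocounts, no filter, a replicate block, robust eBayes, repeat rows only, the compared groups only, each library left out and, chosen after seeing the data, scaling by repeat coverage without 7SL.

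The members, lists and comparisons were chosen with earlier results of these data known. Named beside MMERGLN were the 5 features most like internal sense in each line, the 3 ERV1 rows with the highest sense coverage, the 2 largest rises and falls of ERV1 features that passed, and the 5 internal and LTR pairs with the highest internal coverage. No sequence of MMERGLN was used here.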

Additional observations from a re-analysis of the deposited data

How the results depend on the processing

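Of the 4 MMERGLN features, 3 passed in DKO against Trp53 KO. With other choices 0 passed after median centring, 0 after quantile normalization, 1 after median-ratio scaling and 0 with only the compared groups in the fit, where 2 residual degrees of freedom remain; leaving out 1 library gave 0 to 3. The interaction count was 0 in the full fit, but not with either DKO replicate left out. For internal antisense the log2 interaction was 2.07 without DKO replicate 1 and 1.56 without DKO replicate 2. Each of these fits leaves 1 DKO library, so nothing is read from its count. As deposited, the log2 interaction of each MMERGLN feature stayed above 0 with any 1 library left out. In the other comparisons 0 passed under every alternative run. With a replicate block 3 MMERGLN features passed in DKO against Trp53 KO, and 0 in the other comparisons. Same-numbered deviations correlated between -0.01 and 0.18 in B16 and at 0.03 in KP. The replicates are too few for this to settle whether equal numbers pair the libraries.

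Log2 differences that changed sign did so mainly under median centring. In DKO against Trp53 KO this was internal antisense (-0.44). In DKO against Tdg KO it was internal sense (-0.75, also -0.41 after quantile normalization and -0.31 after median-ratio scaling), LTR sense (-0.51, and -0.069 after median-ratio scaling), internal antisense (-0.35) and LTR antisense (-0.25). In DKO against WT it was internal sense (-0.053), internal antisense (-0.42) and LTR antisense (-0.030). For Trp53 KO against WT it was internal antisense (0.015), and for the interaction internal sense (-0.63, and -0.013 after median-ratio scaling) and internal antisense (-0.36). Scaling by repeat coverage turned internal antisense of Tdg KO against WT in B16 (0.057). With 1 library left out, LTR antisense ranged from -0.52 to 0.71 in Tdg KO against WT and from -2.91 to 0.011 in Trp53 KO against WT of B16, and internal sense in KP from -1.37 to 0.35. The cause was not tested.

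Other ERV1 features passed 21 times in DKO against Trp53 KO. The count was 5 after median centring, 1 after quantile normalization, 6 after median-ratio scaling, 13 with repeat rows only and 0 with only the compared groups, and 0 to 22 with 1 library left out. In DKO against Tdg KO and DKO against WT, the 2 features fell to 0 under the same 3 scalings, the replicate block and the compared groups only, and to 1 under robust eBayes or with repeat rows only. The count was 5 with the pseudocount multiplied by 10 against Tdg KO, 4 with it divided by 10 against WT, and 0 to 8 with 1 library left out in both. With the pseudocount divided by 10, 2 passed in Trp53 KO against WT and 1 in the interaction. With only the compared groups 1 passed in Trp53 KO against WT. With 1 library left out the ranges were 0 to 1 there and 0 to 14 for the interaction. Over all features the DKO against Trp53 KO count of 387 was 136 after median centring, 90 after quantile normalization, 126 after median-ratio scaling, 135 with repeat rows only and 0 with only the compared groups.

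Ratio differences moved by less than the spread between replicates in 207 alternatives and by more in 4. Those 4 concerned sense over antisense: with the pseudocount multiplied by 10 they were 0.67 (internal, DKO against Trp53 KO), -0.30 (internal, DKO against Tdg KO) and -1.20 (internal, KP), and -3.52 (LTR, KP) from summed coverage.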
